A study of Mus musculus with 6 samples.

Results

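Ribosome-bound RNA from *Kiss1* cells of the medial amygdala (MeA) contained transcripts of all 9 metabolic and lactogenic hormone receptor genes examined here. These were the leptin receptor *Lepr*, the growth hormone receptor *Ghr*, the prolactin receptor *Prlr*, the melanocortin receptors *Mc3r* and *Mc4r*, the ghrelin receptor *Ghsr*, the glucagon-like peptide receptor *Glp1r*, and the adiponectin receptors *Adipor1* and *Adipor2*. The genes were taken by symbol from a table of 13886 protein-coding genes, and 9 of 9 were listed. All 9 passed the study's filter on low values, and the lowest group mean was 1.56 CPM, for *Ghsr* in OVX females. *Mc3r* and *Lepr* lay below 1 CPM in OVX replicate 3 and above it in all 3 E2 libraries. If the filter asked for 1 CPM in every library of a group, both passed only through the E2 group. That is the group where *Mc3r* had the higher mean. No receptor gene passed the threshold for a difference between OVX and E2 females after correction across all genes. *Mc3r* had the largest difference, with a level 1.94-fold higher in E2 females, and it did not pass the corrected threshold.

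The libraries came from KissCre+/Rpl22HA+/+ female mice, in which Cre made by *Kiss1*-expressing cells switches the ribosomal protein *Rpl22* to a form with a hemagglutinin (HA) tag. Antibody to the tag pulls down the ribosomes of these cells together with the mRNA on them, an approach called RiboTag. The ovaries were removed at an age of 8 weeks in every mouse (OVX). An estradiol (E2) capsule was then worn for 4 days to raise Cre in the MeA, followed by 7 days without one. The E2 group then carried a second capsule for 5 days, and the OVX group carried none, so the controls had also been exposed to E2 earlier. Each group had 3 libraries, and each library held MeA punches pooled from 4 mice. A cell that made Cre at any earlier time keeps the tag, and a bilateral tissue punch also takes in neighbouring tissue. No library from Cre-negative mice was analysed here, so RNA that sticks to the beads without the tag could not be subtracted. In bulk RNA, fewer cells with a transcript and less transcript per cell cannot be told apart, and this applies to every level below.

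These receptors carry signals about energy stores, meals, growth and lactation to the brain. *Lepr*, *Ghr* and *Prlr* are class I cytokine receptors: the hormone brings 2 receptor chains together, the kinase JAK2 bound to them phosphorylates STAT3 or STAT5, and the STAT enters the nucleus to change transcription. *Mc3r*, *Mc4r*, *Ghsr* and *Glp1r* are G protein-coupled receptors that act mainly through cyclic AMP or, for *Ghsr*, through calcium. *Adipor1* and *Adipor2* span the membrane in the opposite orientation and signal to AMP-activated kinase and lipid pathways. *Mc4r* neurons of the MeA are known from work on feeding and sexual behavior, and prolactin receptors of the amygdala from work on maternal care.

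Sequencing depth was even, with a scaled library size of 28.1 to 34.2 M reads as rebuilt from the deposited values. *Kiss1* was the check of the cell label, and under the more abundant of its 2 gene identifiers it read 2.29, 1.82 and 1.13 log2 CPM (reads of a gene scaled to a common library size) in the OVX libraries against 3.72, 3.80 and 3.45 in the E2 libraries. That is a difference of 1.91 (limma adjusted p = 0.00475). Under the other identifier the groups did not overlap either, but the difference of 5.05 (SE 1.09) did not pass the threshold (limma adjusted p = 0.0943). There OVX replicate 1 read -5.82, the lowest value of that library. The 7 neuron markers summed to 5660 to 5850 CPM in OVX and 5710 to 6030 CPM in E2 libraries, and markers of other cells were present in all 6 libraries. The 7 oligodendrocyte markers summed to 1590 to 2230 CPM in OVX and 1740 to 2450 CPM in E2 libraries, the 6 astrocyte markers to 813 to 1020 and 972 to 1170 CPM, and the 8 choroid plexus markers to 911 to 1470 and 524 to 1300 CPM. Of 8 anterior pituitary markers 3 were listed, *Prl*, *Gh* and *Pomc*, and OVX replicate 2 stood apart for them at 1029 CPM against 2.02 to 228 CPM in the other 5 libraries. The rest of these pituitary markers, *Cga*, *Lhb*, *Fshb*, *Tshb* and *Pou1f1*, were not listed. Marker sums separated the groups for 2 of 10 lists. Among all single genes, 6.85% separated them with E2 higher and 6.82% with E2 lower, and limma called 0.288% at an adjusted p under 0.05. The 4 listed of 5 erythroid markers summed to 121 to 228 CPM in OVX and 280 to 447 CPM in E2 libraries, and limma called 2 of them, *Hba-a1* and *Hba-a2*, near-identical genes whose reads are hard to separate (adjusted p = 0.0124 and 0.0469). The 6 forebrain excitatory markers summed to 855 to 1110 CPM in OVX and 651 to 846 CPM in E2 libraries, with 0 called. In the fibroblast and meninges list, whose sums overlapped at 29.9 to 49.4 and 41.8 to 58.7 CPM, *Col1a1* was called (difference 1.18, limma adjusted p = 0.0469). The part of these cells in the receptor values was not tested.

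The stretches below show where the start-site windows of the receptor genes hold the letters of an estrogen receptor or STAT site, since E2 was the treatment and STATs carry the signal of *Lepr*, *Ghr* and *Prlr*. RefSeq windows of GRCm38.p6, from 250 bases before to 50 bases after each start site, were searched for 8 of the 9 genes, 13 windows in all. *Mc4r* was left out of the search. The full estrogen response element GGTCANNNTGACC was in 0 of 13 windows and in 0.07% of all 32851 mouse windows. Its repeated unit GGTCA, read on either strand, was in 4 of 13 windows and in 40.5% of all windows, and the STAT pattern TTCNNNGAA was in 1 of 13 and 8.3%. Some genes have several start sites, and each start site has 1 window. Only bases upstream of the RefSeq start site are printed, all on the plus strand, and the capitals mark the matched letters, with TGACC being GGTCA on the other strand.
Adipor1, chr1:134415310-134415354: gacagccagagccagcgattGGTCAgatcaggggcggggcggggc
Mc3r, chr2:172248404-172248448: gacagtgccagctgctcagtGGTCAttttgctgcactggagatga
Ghsr, chr3:27371240-27371284: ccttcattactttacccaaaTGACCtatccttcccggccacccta
Glp1r, chr17:30901833-30901866: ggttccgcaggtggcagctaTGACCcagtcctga
Prlr, chr15:10223776-10223824: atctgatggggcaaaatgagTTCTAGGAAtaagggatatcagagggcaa
The matches began 68, 91 and 14 bases before the start site in *Mc3r*, *Ghsr* and *Glp1r*, 48 bases before 1 of 2 start sites in *Adipor1*, and 110 bases before 1 of 3 in *Prlr*. In *Glp1r* the gene annotation used for coordinates below starts earlier, at 30901817, so the printed stretch lies inside the gene as annotated there. A match of letters is a description and not a measured binding site.

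The 3 cytokine receptors differed in how firmly they were measured. *Prlr*, the receptor for prolactin and placental lactogen, lies at chr15:10177238-10349180 on the plus strand of GRCm38 and has 12 annotated transcripts, 7 of them coding, which gene-level values do not separate. Its log2 CPM was 3.81, 4.38 and 4.14 in OVX replicates 1 to 3 and 5.08, 4.41 and 4.09 in E2 replicates 1 to 3. E2 replicate 1 was the highest of the 6 libraries, while E2 replicate 3 lay below 2 of the OVX libraries, so the groups overlapped. The mean was 4.11 ± 0.28 in OVX and 4.53 ± 0.50 in E2 females (SD over 3 pools each). The difference of 0.42 (SE 0.21, 95% interval -0.03 to 0.86) did not pass the threshold (limma adjusted p = 0.608).

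That difference rested on 1 library. Without E2 replicate 1 it was 0.14 (limma adjusted p = 0.971), and without E2 replicate 3 it was 0.64 (adjusted p = 0.264). Its SE was larger than that of 98.6% of the 2385 genes within 0.5 log2 units of its mean level, so the replicates of *Prlr* spread more than those of most genes read at the same depth. E2 replicate 1 also had the highest summed level of oligodendrocyte markers, 2451 CPM, and of astrocyte markers, 1169 CPM. The astrocyte markers did not all peak there. *Gfap* (352 CPM), *Aqp4*, *Aldh1l1* and *Gja1* were highest in E2 replicate 1. *Aldoc* (424 CPM) and *Slc1a3* (252 CPM) were highest in E2 replicate 3. The fibroblast and meninges sum was 58.7 CPM in E2 replicate 1 and 58.1 CPM in E2 replicate 3. The choroid plexus sum was 1304 CPM in E2 replicate 1. It was highest in OVX replicate 2, at 1470 CPM, and lowest in E2 replicate 2, at 524 CPM. *Prl*, which encodes the ligand and is made mainly in the pituitary, read 4.23, 823 and 67.4 CPM in the OVX and 111, 216 and 0.417 CPM in the E2 libraries. Without OVX replicate 2, which held most of it, the *Prlr* difference was 0.55 (limma adjusted p = 0.416). The part of these other cells in the *Prlr* values was not tested. *Prlr* shares 203 exonic bases on the same strand with another annotated gene, *Gm21973*, and reads there cannot be assigned by position alone.

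**Figure D1:**
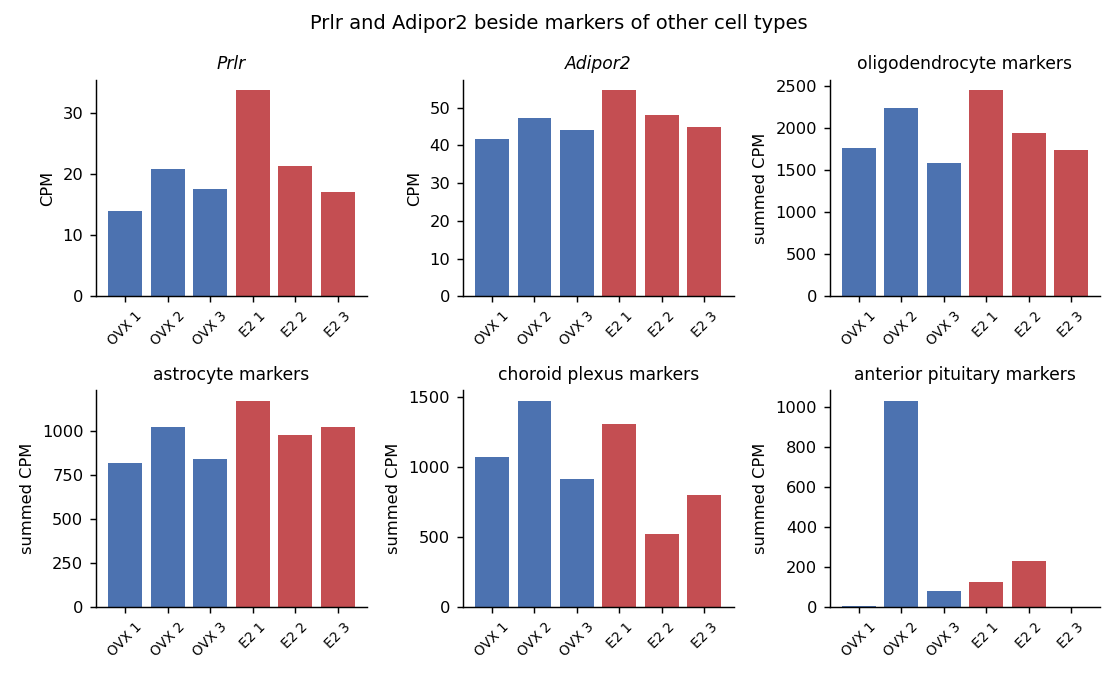
*Prlr* and *Adipor2* in CPM, and the summed CPM of oligodendrocyte, astrocyte, choroid plexus and anterior pituitary markers, in each of the 6 libraries (blue bars OVX, red bars E2; each bar is 1 pool of 4 mice, with no error bar). E2 replicate 1 is highest for *Prlr*, *Adipor2* and the oligodendrocyte and astrocyte sums, and OVX replicate 2 stands alone for the pituitary sum at 1029 CPM.

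*Ghr*, the growth hormone receptor, lies on the minus strand at chr15:3317760-3583492. It read 3.09, 3.65 and 3.77 log2 CPM in the OVX libraries and 3.80, 3.79 and 3.92 in the E2 libraries. Every E2 library was above every OVX library, although the gap between the lowest E2 and the highest OVX value was 0.023, and OVX replicate 1 was the low one. Means were 3.50 ± 0.36 and 3.83 ± 0.07 (SD, n = 3 each), a difference of 0.33 (SE 0.17, 95% interval -0.03 to 0.70) that did not pass the threshold (limma adjusted p = 0.622). Leaving out OVX replicate 1 brought it to 0.13 (adjusted p = 0.941), and leaving out OVX replicate 2, the library with the most *Prl* and *Gh*, brought it to 0.41 (adjusted p = 0.4997). The ligand gene *Gh* ranged from 0.0463 CPM in E2 replicate 3 to 203 CPM in OVX replicate 2.

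*Lepr*, the receptor for the fat hormone leptin, had 20 to 112 reads per library. The gene spans chr4:101717404-101815352 on the plus strand and has 7 transcripts, among them the signaling long form and short forms, which the table does not separate. Its log2 CPM was 0.97, 1.72 and -0.45 in OVX and 0.77, 0.25 and 1.06 in E2 libraries. The highest and the lowest value were both OVX libraries, so the E2 range lay inside the OVX range. The 7 endothelial and mural markers also had their highest sum in OVX replicate 2, 330 CPM, and their lowest in OVX replicate 3, 175 CPM. OVX replicate 1 had a sum of 200 CPM, below all E2 libraries, but more *Lepr* than E2 replicates 1 and 2. The part of those cells in the *Lepr* values was not tested. The *Lepr* difference was -0.05 (SE 0.51, 95% interval -1.14 to 1.04, limma adjusted p = 0.992). Its sign changed when OVX replicate 1, OVX replicate 2 or E2 replicate 2 was left out. An interval this wide holds a more than 2-fold change in either direction. The SE was larger than that of 89.9% of the 838 genes within 0.5 log2 units of its mean, whose median SE was 0.406.

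**Figure D2:**
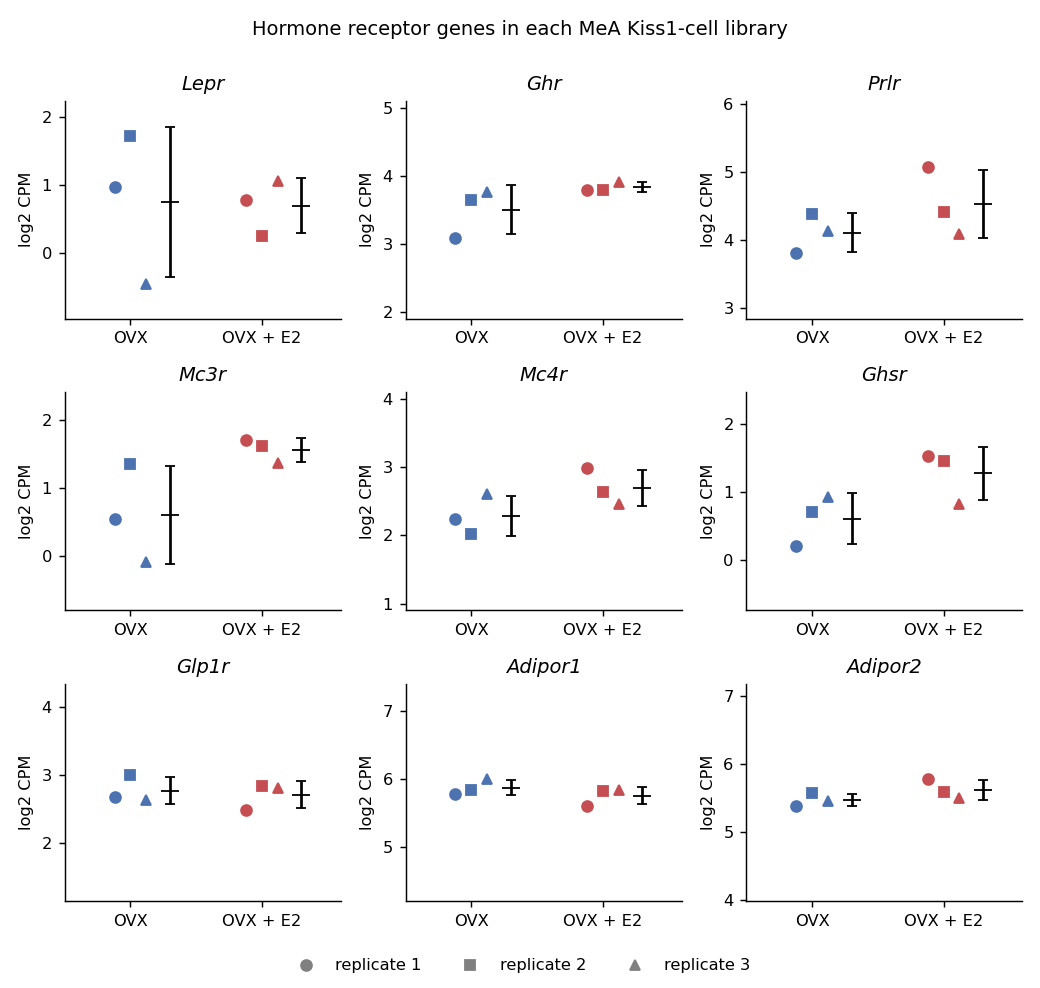
Log2 CPM of the 9 receptor genes in the 3 OVX (blue) and 3 E2 (red) libraries; marker shapes give replicates 1, 2 and 3, and the black bars the mean and SD of each group. All panels span the same number of log2 units. Only *Mc3r* and *Ghr* have E2 values that all lie above the OVX values, and *Lepr* has the widest spread.

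Both central melanocortin receptors were listed, and both had higher means in E2 females. *Mc3r* binds melanocortin peptides such as alpha-MSH and is known for its part in energy partitioning and the response to fasting. It is a single-transcript gene at chr2:172248492-172251114. The OVX libraries read 0.55, 1.36 and -0.08 log2 CPM and the E2 libraries 1.70, 1.62 and 1.37. The groups did not overlap, but OVX replicate 2 came within 0.0087 of E2 replicate 3. Means were 0.61 ± 0.72 in OVX and 1.56 ± 0.18 in E2 females (SD, n = 3 each), and the OVX libraries spread more. The difference of 0.95 (SE 0.38, 95% interval 0.13 to 1.78) did not pass the threshold (limma adjusted p = 0.497). It rested on 26 to 104 reads per library. Without OVX replicate 3 the difference was 0.61 (adjusted p = 0.641), and without OVX replicate 2 it was 1.33 (adjusted p = 0.216).

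*Mc4r*, the receptor whose loss causes hyperphagia and obesity in mice, lies at chr18:66857704-66860506 on the minus strand. Values were 2.239, 2.019 and 2.602 log2 CPM in OVX and 2.99, 2.64 and 2.46 in E2 libraries. E2 replicates 1 and 2 were the highest of the 6, and E2 replicate 3 was below OVX replicate 3. The difference of 0.41 (SE 0.22, 95% interval -0.07 to 0.89) did not pass the threshold (limma adjusted p = 0.668). Without E2 replicate 1 it was 0.27, and without OVX replicate 3 it was 0.57.

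*Ghsr*, the receptor for the stomach hormone ghrelin, lies at chr3:27371351-27378010 and had 32 to 93 reads per library. Its log2 CPM was 0.20, 0.70 and 0.93 in OVX and 1.53, 1.46 and 0.83 in E2 libraries. E2 replicates 1 and 2 were above all OVX libraries and E2 replicate 3 fell among them. The difference was 0.66 (SE 0.36, 95% interval -0.12 to 1.44, limma adjusted p = 0.675). *Glp1r*, the receptor for the gut and brainstem satiety peptide GLP-1, lies at chr17:30901817-30940791. It read 2.682, 3.001 and 2.636 in OVX and 2.49, 2.84 and 2.82 in E2 libraries. These ranges lay almost on top of each other, with a difference of -0.06 (SE 0.19, 95% interval -0.47 to 0.35, limma adjusted p = 0.974). Its sign turned, to 0.06, without OVX replicate 2 and also without E2 replicate 1.

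The adiponectin receptors had the smallest SEs of the 9. *Adipor1*, at chr1:134415378-134433351, read 5.787, 5.850 and 6.001 log2 CPM in OVX and 5.61, 5.83 and 5.84 in E2 libraries. *Adipor2*, at chr6:119353150-119417704 on the minus strand, read 5.38, 5.56 and 5.46 in OVX and 5.77, 5.58 and 5.49 in E2 libraries. The groups overlapped for both genes, and the differences had opposite signs. The difference was -0.12 for *Adipor1* (SE 0.08, 95% interval -0.30 to 0.06, limma adjusted p = 0.772), and it was -0.05 without E2 replicate 1 and -0.06 without OVX replicate 3. For *Adipor2* it was 0.15 (SE 0.09, 95% interval -0.04 to 0.34, limma adjusted p = 0.711). With 1180 reads or more in each library, both intervals stayed within -0.30 to 0.34. As for *Prlr*, the highest *Adipor2* value was in E2 replicate 1, and without that library the difference was 0.07.

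Across the 9 receptors, limma called 0 at an adjusted p under 0.05, where it called 40 of all 13886 genes (0.288%), and the voom-weighted fit also called 0. At an unadjusted p under 0.05 there was 1, *Mc3r* at 0.0263, against 8.56% of all genes, so 1 of 9 is close to the share in the whole table. Means were higher in E2 females for 6 receptors, against 51.0% of all genes. E2 values that all lay above the OVX values were found for 2 receptors (6.85% of all genes), *Mc3r* and *Ghr*, and the reverse for 0 receptors (6.82% of all genes). The median difference of the 9 was 0.33, where that of all genes was 0.0034. An exact two-sided permutation test of 3 against 3 libraries cannot go below p = 0.1, and it gave that value for *Mc3r* and *Ghr* and values from 0.2 to 1.0 for the other 7 receptors.

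**Figure D3:**
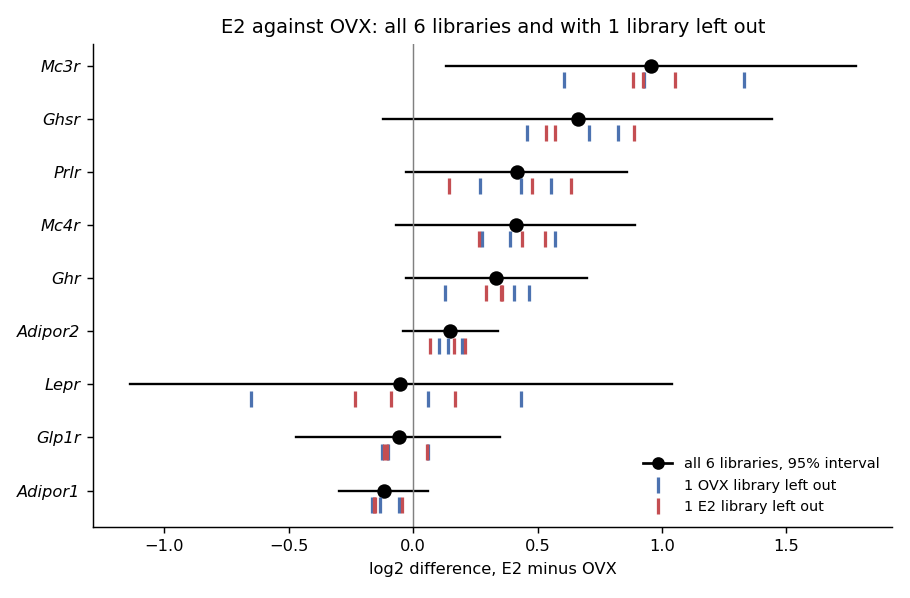
Log2 difference, E2 minus OVX, of each receptor gene over all 6 libraries (black point, with its 95% interval from limma) and with 1 library left out (blue ticks, an OVX library; red ticks, an E2 library). The interval of *Mc3r* alone stays above 0, at 0.13 to 1.78 and before correction across genes. *Lepr* spans -1.14 to 1.04, and its ticks fall on both sides of 0.

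Levels were compared between receptors as log2 CPM per kilobase of the longest annotated transcript, over all 6 libraries. *Adipor1* was highest at 4.03 ± 0.12 (SD, n = 6) and *Adipor2* next at 3.48 ± 0.13, both above the median of 2.97 for all genes with a length. *Ghr* followed at 1.61 ± 0.30, *Prlr* at 1.01 ± 0.43 and *Mc4r* at 1.01 ± 0.34. *Glp1r* was at 0.21 ± 0.18, *Mc3r* at -0.31 ± 0.70, *Ghsr* at -1.21 ± 0.50 and *Lepr* at -1.75 ± 0.75. Thus the 2 widely expressed adiponectin receptors stood above the median gene and the other 7 receptors below it, with 1.51% of genes having a lower level than *Lepr*. The neighbours *Prlr* and *Mc4r*, *Glp1r* and *Mc3r*, and *Ghsr* and *Lepr* lay closer together than the larger of their SDs, so their order was not resolved. The order in the middle also depends on which length is used for the genes with many transcripts. The longest *Prlr* transcript has 9900 bases against a mean of 2582.6 for its coding transcripts, and with the latter *Prlr* stood at rank 3, at 2.95. With the union of all exons as the length, *Mc4r* was rank 3 and *Prlr* rank 5. *Adipor1* was above *Adipor2* in 6 of 6 libraries with the longest transcript and in 4 of 6 with the mean coding length.

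**Figure D4:**
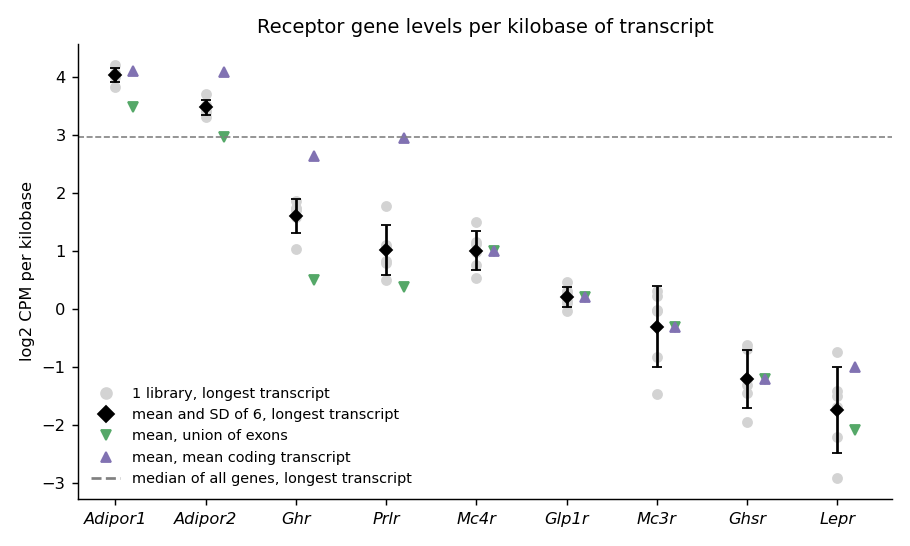
Level of each receptor gene in log2 CPM per kilobase (grey points, 6 libraries; black diamond and bars, mean and SD, with the longest transcript as length; green and purple triangles, means with the union of exons or the mean coding transcript as length; dashed line, the median of all genes at 2.97). The adiponectin receptors lie above the line with the longest transcript, and *Prlr* moves most with the choice of length.

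The receptors did not vary together as a group. Over the 6 libraries, Pearson's r was 0.993 between *Prlr* and *Adipor2*, 0.828 between *Ghsr* and *Adipor2*, and 0.805 between *Mc4r* and *Ghsr*, but -0.762 between *Mc4r* and *Glp1r*. The points share their libraries, depth and treatment, and the values describe these 6 libraries only. Among all genes with a symbol, those closest to *Prlr* were *C4b* (r = 0.997), *Adipor2* and *Ptma* (0.986). *C4b*, a complement gene, was also first for *Adipor2* (0.998), followed by *Plekhb1* (0.994) and *Prlr*. For *Mc3r* they were *Pggt1b* (0.9945), *Akip1* (0.991) and *Slf1* (0.990), and for *Mc4r* *T2* (0.992), *Chrna3* (0.981) and *Fam204a* (0.981). The genes closest to *Ghsr* were *Epsti1* (0.997), *Rdh11* (0.995) and *Gbp6* (0.993), and those closest to *Ghr* were *Acot5* (0.995), *Ky* (0.991) and *Tmed5* (0.991). For *Lepr* they included *Tor1aip1* (0.985) and *Sox9* (0.982), for *Glp1r* *Cep295* (0.993), *Fv1* (0.989) and *Sirt3* (0.983), and for *Adipor1* *Atg13* (0.998), *Riox1* (0.990) and *Zfp655* (0.987). With all genes that have a symbol searched over 6 libraries, the 3 closest genes of every receptor had r of 0.98 or above.

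The genes that surround these receptors in their pathways were also listed, in large part, and none passed the threshold. Of 91 partner genes in 8 lists, 71 were listed and limma called 0 at an adjusted p under 0.05, against 0.288% of all genes. At an unadjusted p under 0.05 there were 6, against 8.56% of all genes, and the median difference was -0.015. Of the 11 genes in the ligand list, 4 were listed: *Igf1*, *Pomc*, *Gh* and *Prl*. *Igf1* was in that list although it is not a ligand of the 9 receptors. *Pomc*, the precursor of the melanocortins, differed by 0.0032 (limma adjusted p = 0.999), and *Igf1*, a growth hormone target, by -0.43 (adjusted p = 0.844). *Gh* differed by -2.99 and *Prl*, the highest of the list per kilobase, by -1.52, with SEs of 1.87 and 1.96, and OVX replicate 2 held most of both. The genes for leptin, ghrelin, agouti-related peptide, proglucagon and adiponectin were not listed, nor were *Leap2* and *C1qtnf9*.

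Of the JAK and STAT genes 10 of 11 were listed, 4 with a higher and 6 with a lower mean in E2 females, and *Jak1* was the highest per kilobase at 5.45 with a difference of 0.0008. *Jak2*, the kinase of *Lepr*, *Ghr* and *Prlr*, read 5.08, 5.29 and 5.25 log2 CPM in OVX and 5.18, 5.16 and 5.23 in E2 libraries. *Stat3* differed by 0.0068 and *Stat5b* by -0.12 (limma adjusted p = 0.993 and 0.718). All 18 regulators of the pathway were listed, with 9 means in each direction. *Socs5* was the highest of them per kilobase at 4.76, and *Socs7*, a SOCS-box inhibitor gene, differed by -0.19 and did not pass (limma adjusted p = 0.392). *Socs3*, the feedback inhibitor of leptin signaling, differed by -0.15 (limma adjusted p = 0.931).

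Of 13 related class I cytokine receptors 10 were listed, 5 with a higher mean in E2 females. *Cntfr*, the receptor for ciliary neurotrophic factor, was the highest per kilobase at 4.50, and *Il6st*, the shared signaling chain gp130, differed by 0.25 with an unadjusted p of 0.0398 (limma adjusted p = 0.547). A further list held 10 genes, the other melanocortin receptors and accessory genes of the melanocortin and ghrelin receptors. Of these 5 were listed, led by *Mgrn1* at 6.01 log2 CPM per kilobase. The receptors *Mc1r*, *Mc2r* and *Mc5r* were not listed, nor were *Mrap* and *Mboat4*. *Atrnl1*, an attractin-like gene, differed by -0.22, with no overlap between the groups (limma adjusted p = 0.287), and *Mrap2*, which modulates *Mc4r* and *Ghsr*, by -0.07 (limma adjusted p = 0.931). Of 5 other receptors of the glucagon family 2 were listed, *Gipr* and *Glp2r*. *Gipr* differed by 0.42, and its level per kilobase was -0.49.

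All 9 further genes of the PAQR family, to which the adiponectin receptors belong, were listed. *Mmd* was the highest per kilobase at 5.99, and *Paqr8*, a membrane progesterone receptor gene, differed by 0.24 (limma adjusted p = 0.454). Of 14 genes of adiponectin signaling and AMP-activated kinase 13 were listed, 7 with a higher and 6 with a lower mean in E2 females, and *Cab39* was the highest per kilobase at 5.52. *Camkk2*, an upstream kinase of AMP-activated kinase, differed by -0.17 (limma adjusted p = 0.404). *Cdh13*, which encodes the adiponectin-binding T-cadherin, differed by 0.22 (limma adjusted p = 0.429). Non-overlapping groups with lower E2 values were found for 7 partner genes (6.82% of all genes) and with higher E2 values for 0 (6.85% of all genes).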

How the data were processed

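Per the study's methods and the submitters' processing notes, ribosome-bound RNA was sequenced as single 75-base reads from unstranded poly(A) libraries, checked with FastQC 0.11.8, trimmed with Trimmomatic 0.38, aligned with STAR 2.6.0a to GRCm38/mm10, and quantified with RSEM on Ensembl release 98. The deposited values are log2 CPM made by the authors with voom, which adds 0.5 to each count, on library sizes scaled by TMM, for protein-coding genes that passed a filter on low CPM. A second deposited table holds the authors' own comparison (fold changes, p-values, group averages) and was not used. Because poly(A) reads came from an unstranded kit, overlapping genes on opposite strands cannot be told apart.

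The 6 libraries were grouped by their treatment label. E2 and OVX were compared on the log2 CPM with limma 3.58.1 in R 4.3.3 (mean-variance trend, two-sided, Benjamini-Hochberg over 13886 genes, threshold 0.05), checked on simulated data, with an exact permutation test over 20 splits for single receptors. Replicates are separate pools. Reads per library were rebuilt by taking each library's lowest value as a count of 0, and 53 of 54 receptor values came out whole within 0.01. Levels per kilobase used annotation lengths from GENCODE on GRCm38, a release other than that of the authors. Alternatives were weights, scaling, filters, pseudocount, prior, a replicate block, leaving out each library, and other lengths. The receptors, partner lists, marker lists and motifs were chosen with earlier results of these data known. Named genes were the 9 receptors, the 3 most similar genes to each (1 of them is not reported here), and, of each partner list, the highest per kilobase and those with an unadjusted p under 0.05, plus listed ligands, *Kiss1* and *Rpl22*; *Jak2*, *Stat3*, *Stat5b*, *Socs3* and *Mrap2* were added after their values were seen. *Rpl22*, the tagged gene, differed by 0.15 (limma adjusted p = 0.691).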

Additional observations from a re-analysis of the deposited data

How the results depend on the processing

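No receptor and no partner gene passed the adjusted threshold of limma under any alternative run: each difference had 16 of them, or 15 for *Lepr* and *Ghsr*, which a minimum mean log2 CPM of 1 removes. Of those values, 137 kept their direction and 5 turned it, all on leaving out a library: *Lepr* ranged from -0.65 to 0.43 and *Glp1r* from -0.124 to 0.0587 over these fits. The number of genes called among all, 40 with the trend, was 0 with no trend, and 20 to 66 with 1 library left out; the cause was not tested. It was 21 without OVX replicate 1, 26 without E2 replicate 1, 20 without E2 replicate 2 and 66 without E2 replicate 3. With a replicate block it was 35, with 0 receptors. Same-numbered libraries did not deviate together (r = -0.02, -0.12 and -0.08), so the numbers were not taken to pair the pools. With the mean coding transcript as length, 5 of 9 receptors stayed at their rank. Reads per library were fewest for *Lepr*, *Mc3r* and *Ghsr*.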
